A study of Mus musculus with 2 samples.

Results

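Hlf, Mecom, Meis1, Mllt3, Ikzf2, Gfi1, Gfi1b, Spi1, Erg and Fli1 encode transcriptional regulators known for their part in blood stem cells, and their levels were followed here through every cell type of the embryonic trunk and liver. The 10 genes were matched by symbol in the deposited count tables, where all 10 were found among 31053 listed genes. Single-cell libraries had been made from C57BL/6 mouse embryos with the 10x 3' assay, 1 library at embryonic stage E11.5 and 1 at E10.5. Each held cells of both the dorsal aorta region and the fetal liver, and the labels name no genotype, treatment or number of embryos. With 1 library at each stage there was no replicate and no test, so each 95% interval covers counting error only.

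As background, blood stem cells first bud from haemogenic endothelium lining the main embryonic artery, and the liver is where they go next. Erg, Fli1 and Spi1 are ETS factors. Erg and Fli1 bind blood stem cell enhancers together with Runx1, Gata2, Tal1, Lyl1 and Lmo2, and both also act in endothelium, while Spi1 (PU.1) drives myeloid fate. Gfi1 and Gfi1b are paired zinc-finger repressors that silence endothelial genes when blood forms. Hlf (a PAR bZIP factor), Mecom (a zinc-finger factor related to Prdm16), Meis1 (a homeobox partner of Pbx and Hox proteins), Mllt3 (a subunit of transcription elongation complexes that also binds Dot1l) and Ikzf2 (Helios, of the Ikaros family) are used as markers or regulators of stem cells.

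Gfi1b and Gfi1 had their highest levels in different classes, and Hlf was counted in liver as well as in blood, so the sequences upstream of these 3 genes are shown first. They are the 250 bases before the start in RefSeq (GRCm38.p6), all on the minus strand, at chr2:28621983-28622232 for Gfi1b, chr5:107725806-107726055 for Gfi1 and chr11:90390918-90391167 for Hlf. Capitals mark matches to GATAA (bound by Gata factors), GGAAG (ETS factors) or TGTGGT (Runx factors), searched on both strands.
Gfi1b: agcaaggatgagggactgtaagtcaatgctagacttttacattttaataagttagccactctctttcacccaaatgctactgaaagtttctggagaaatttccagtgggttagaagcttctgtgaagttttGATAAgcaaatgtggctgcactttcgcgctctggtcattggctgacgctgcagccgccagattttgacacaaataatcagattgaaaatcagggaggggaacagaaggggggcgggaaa
Gfi1: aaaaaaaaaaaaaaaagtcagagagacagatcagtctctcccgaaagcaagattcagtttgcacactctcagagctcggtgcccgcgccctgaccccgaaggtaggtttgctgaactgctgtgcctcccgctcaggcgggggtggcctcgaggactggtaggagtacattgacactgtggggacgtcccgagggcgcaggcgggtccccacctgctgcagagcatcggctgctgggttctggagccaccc
Hlf: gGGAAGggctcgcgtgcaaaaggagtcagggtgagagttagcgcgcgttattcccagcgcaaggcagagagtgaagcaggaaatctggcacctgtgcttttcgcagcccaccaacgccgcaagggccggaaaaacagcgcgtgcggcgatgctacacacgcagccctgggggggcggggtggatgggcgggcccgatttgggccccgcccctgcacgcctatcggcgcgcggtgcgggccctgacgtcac
Gfi1b held 1 GATAA, 119 to 115 bases before the start, and Hlf held 1 GGAAG, 249 to 245 bases before it. Gfi1 held none of the 3 motifs in this window. Among 32851 promoters of the same length, 22.6% held GATAA, 64.1% GGAAG and 14% TGTGGT, so such matches are common, and none here is shown to be a site. Of the 10 genes, 7 had an entry; Ikzf2, Spi1 and Fli1 had none.

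After filtering, 8976 cells remained at E11.5 (median 13121.5 UMIs, the counted molecules) and 8009 at E10.5 (median 15467 UMIs), and 20 of their cell barcodes occurred in both libraries. Cells were clustered without the 10 genes and named by likeness to marker lists. Of 62 clusters, 49 were named, in 25 classes, while 46.7% of cells at E11.5 and 47.7% at E10.5 stayed unnamed. Many clusters held cells of 1 library alone, and for these the stage, the tissue taken and the library cannot be told apart. Levels are CPM, the UMIs of a gene in a class scaled to a common total, over genes other than haemoglobin and mitochondrial ones, and are compared within a gene only.

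Most of the factors peaked in blood or endothelium. Among classes with at least 20 cells, the highest level of 8 of the 10 genes was in a blood or endothelial class at E11.5, as it was for the same number at E10.5. Hlf and Meis1 were the exceptions at both stages. With the minimum of 100 UMIs and 20 CPM that the whole table needs, the count was 7 of 9 genes at each stage, since Gfi1 was too low, against 39.1% of all genes at E11.5 and 26.1% at E10.5. Blood and endothelial classes were 9 of 27 ranked at E11.5 and 4 of 23 at E10.5.

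**Figure D1:**
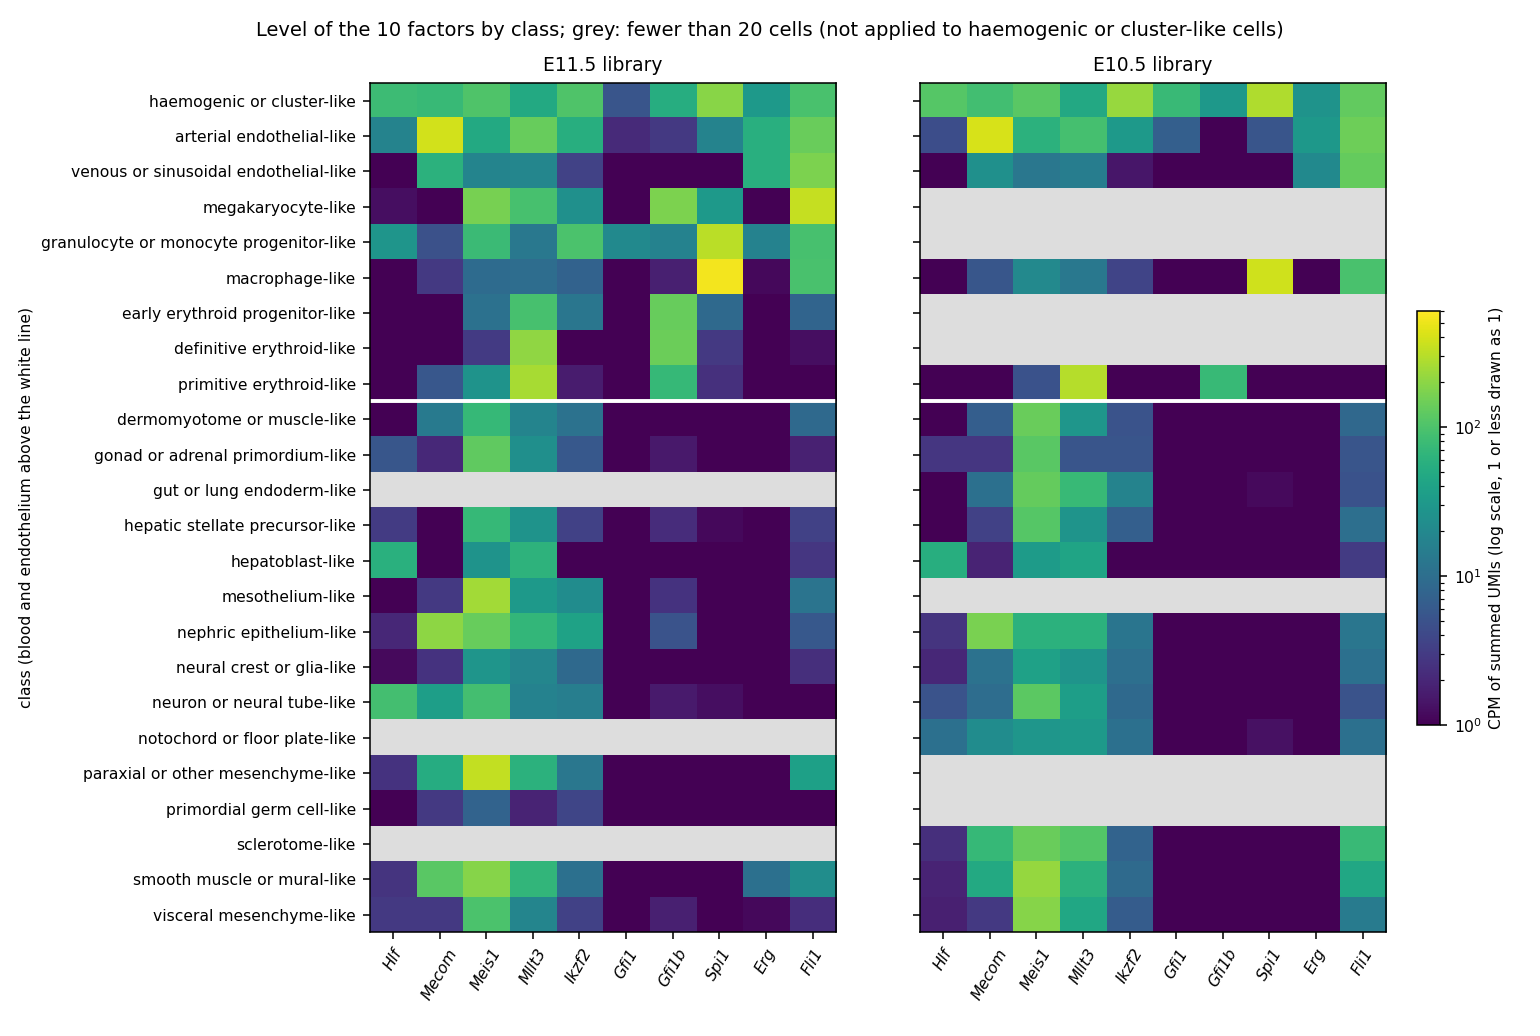
Level of each factor (columns) in each named class (rows) in the E11.5 library, left, and the E10.5 library, right, as CPM on a log colour scale. Grey marks fewer than 20 cells, except in haemogenic or cluster-like cells. Blood and endothelial classes stand above the white line, where Gfi1b and Spi1 are bright, while Meis1 is bright below it and Hlf is bright in hepatoblast-like cells.

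The cells most like stem cell precursors were few. The haemogenic or cluster-like class had 7 cells at E11.5 (14094 to 73469 UMIs per cell) and 12 at E10.5 (7560 to 104041 UMIs). Runx1, the regulator of the endothelial-to-blood transition, was counted in all 7 cells at E11.5 and all 12 at E10.5, and the endothelial cadherin gene Cdh5 in 5 at E11.5 and 11 at E10.5. Kit, the stem cell factor receptor, was counted in 6 cells at E11.5 and 10 at E10.5. The other markers of this class varied between the libraries. Adgrg1 was counted in 7 cells at E11.5 and 11 at E10.5, Cd44 in 4 at E11.5 and 10 at E10.5. Neurl3 was in 3 at E11.5 and 12 at E10.5, and Spn in 2 at E11.5 and 9 at E10.5. Ptprc was in 5 at E11.5 and 2 at E10.5, and Itga2b in 3 at E11.5 and 5 at E10.5. Of arterial genes, Gja5 was counted in 0 cells at E11.5 and 1 at E10.5, Sox17 in 2 at E11.5 and 0 at E10.5, and Hey1 in 2 at E11.5 and 4 at E10.5. The arterial connexin gene Gja4 was counted in 3 cells at E11.5 and 9 at E10.5, and Pecam1 in 5 at E11.5 and 10 at E10.5. Efnb2 was in 2 at E11.5 and 3 at E10.5, and Dll4 in 2 at E11.5 and 0 at E10.5. Cxcr4 was in 2 at E11.5 and 1 at E10.5, and Hey2 in 0 at both stages. Markers of other blood cells were mixed. The macrophage genes Cx3cr1, Adgre1, C1qa, C1qc, Mrc1 and Fcgr1 and the granulocyte genes Elane, Ctsg, Cebpe, Ly6c2 and Prss57 were at 0 at both stages, but Tyrobp was counted in 5 cells at E11.5 and 5 at E10.5, Csf1r in 0 at E11.5 and 3 at E10.5, and Mpo in 5 at E11.5 and 6 at E10.5. The granulocyte gene Ms4a3 was counted in 0 cells at E11.5 and 4 at E10.5. C1qb, a macrophage gene, was in 1 at E11.5 and 0 at E10.5. Lyz2 was counted in 6 cells at E11.5 and 10 at E10.5, Prtn3 in 6 at E11.5 and 12 at E10.5, and the platelet gene Pf4 in 4 at E11.5 and 10 at E10.5. Of other megakaryocyte genes, Cd9 was counted in 4 cells at E11.5 and 11 at E10.5, and Plek and Gp9 each in 4 at E11.5 and 6 at E10.5. Treml1 and Gp5 were each in 2 at E11.5 and 1 at E10.5, and Itgb3 in 1 at E11.5 and 9 at E10.5. Gp1bb was in 1 at E11.5 and 2 at E10.5, and Ppbp in 0 at E11.5 and 4 at E10.5. The part of other blood cells in this class was not tested.

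These cells held many of the factors at once. A cell had a UMI of 2 to 8 of the 10 factors at E11.5 (median 7) and of 5 to 10 at E10.5 (median 9), with 8 or more factors in 3 of 7 cells at E11.5 and 8 of 12 at E10.5. Median depth was 20799 UMIs at E11.5 and 43147 at E10.5, and the counts per cell here are not scaled for it. Numbers of factors at equal depth are given below. Spi1 had 0 to 10 UMIs per cell (median 5) at E11.5 and 0 to 31 (median 11) at E10.5. Ikzf2 had 0 to 5 UMIs (median 2) at E11.5 and 1 to 23 (median 8.5) at E10.5, so that it was counted in each of the 12 E10.5 cells. Hlf had 0 to 5 UMIs (median 2) at E11.5 and 0 to 14 (median 3.5) at E10.5, in 6 of 7 cells at E11.5 and 11 of 12 at E10.5. Gfi1 stood out by stage. It had a single UMI in 1 of 7 cells at E11.5, against 40 UMIs in 10 of 12 cells at E10.5, or 5.37 CPM at E11.5 and 75.7 CPM at E10.5.

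Set against arterial endothelial-like cells of the same library, the haemogenic-like cells were higher for Spi1, Gfi1b, Hlf, Ikzf2 and Meis1 and lower for Mecom and Mllt3 at both stages. Spi1 was at 193 CPM in haemogenic-like and 17.3 CPM in arterial-like cells at E11.5, a log2 ratio of 3.48 (2.69 to 4.29), and at 282 CPM in haemogenic-like and 5.36 CPM in arterial-like cells at E10.5 (5.72, 4.90 to 6.66). Hlf was at 80.5 CPM in haemogenic-like and 17.3 CPM in arterial-like cells at E11.5 (2.21, 1.18 to 3.20), and at 110 CPM in haemogenic-like and 4.53 CPM in arterial-like cells at E10.5 (4.60, 3.65 to 5.68). Mecom went the other way, at 75.1 CPM in haemogenic-like and 389 CPM in arterial-like cells at E11.5 (-2.37, -3.25 to -1.61), and at 87.1 CPM in haemogenic-like and 409 CPM in arterial-like cells at E10.5 (-2.23, -2.69 to -1.80). Ikzf2 was at 102 CPM in haemogenic-like and 55.7 CPM in arterial-like cells at E11.5, and at 225 CPM in haemogenic-like and 31.3 CPM in arterial-like cells at E10.5. The intervals of Erg and Fli1, factors of both endothelium and blood, held 0 at both stages (Erg -0.81 at E11.5 and -0.20 at E10.5, Fli1 -0.53 at E11.5 and -0.16 at E10.5). These values rest on where the cluster was drawn: at a finer clustering the class had 21.3 CPM of Hlf at E11.5 and 66.5 CPM at E10.5, and 21.3 CPM of Mecom at E11.5 and 53.9 CPM at E10.5. In 13 cells of each library with at least 2 UMIs of both Cdh5 and Runx1, whatever their cluster, Hlf was at 67.9 CPM at E11.5 and 85.3 CPM at E10.5, and Ikzf2 at 85.4 CPM at E11.5 and 161 CPM at E10.5. Gfi1b was lower than in the class, at 6.57 CPM at E11.5 (3 UMIs) and 19.9 CPM at E10.5. Mllt3 was higher than in the class, at 87.6 CPM at E11.5 and 68.2 CPM at E10.5. This set overlaps the class, with 3 haemogenic-like and 4 macrophage-like cells at E11.5 and 9 haemogenic-like cells at E10.5.

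**Figure D2:**
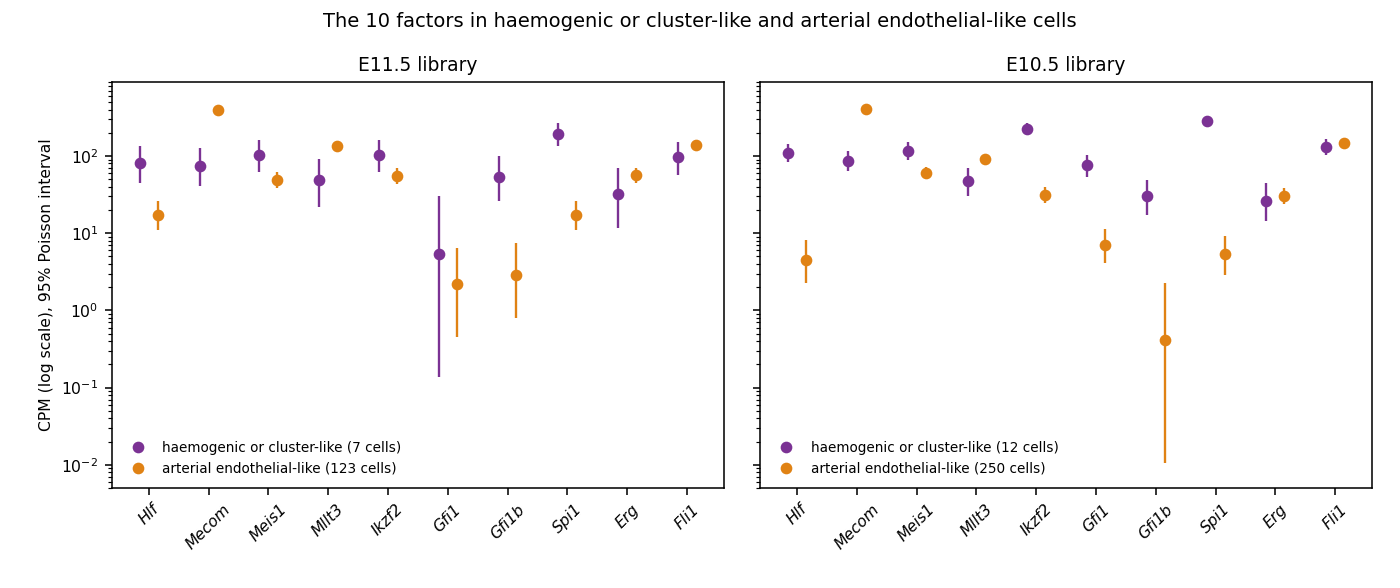
CPM of each factor on a log scale with its 95% Poisson interval in haemogenic or cluster-like cells (7 at E11.5, 12 at E10.5) and arterial endothelial-like cells (123 at E11.5, 250 at E10.5). Spi1, Gfi1b and Hlf lie higher in haemogenic-like cells and Mecom lies higher in arterial-like cells in both panels; a gene with no UMI would have no point.

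Had this small class been ranked with the larger ones, it would have been the highest for Ikzf2 at E11.5 (102 CPM, next to 97.4 CPM in granulocyte or monocyte progenitor-like cells). At E10.5 it would have led for Hlf (110 CPM, next to 55.3 CPM in hepatoblast-like cells), Ikzf2 (225 CPM, next to 31.3 CPM in arterial-like cells) and Gfi1 (75.7 CPM, next to 7.01 CPM in arterial-like cells). For Meis1 and Mllt3 it would have ranked 10th or lower at both stages.

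Gfi1b marked the red cell and megakaryocyte lineages. At E11.5 it was at 172 CPM in megakaryocyte-like cells (156 to 190, 76 of 113 cells), 143 CPM in definitive erythroid-like cells (309 of 369) and 137 CPM in early erythroid progenitor-like cells (282 of 311). The level in megakaryocyte-like cells was above that of the next class beyond the intervals, while those of definitive and early erythroid cells overlapped. Primitive erythroid-like cells, the yolk sac-derived red cells, had the same level at both stages within the interval, at 73.5 CPM (59.1 to 90.3) at E11.5 and 74.3 CPM (64.5 to 85.0) at E10.5. Blood held 95.4% of all Gfi1b UMIs at E11.5 and 93.7% at E10.5. Neural crest or glia-like cells should lack the gene, and 1.34% of them had a UMI at E11.5 (median depth 22708 UMIs) and 0.727% at E10.5 (22757 UMIs).

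Gfi1 was rarely counted beyond the haemogenic-like cells. All cells together held 32 UMIs at E11.5 and 64 at E10.5. Granulocyte or monocyte progenitor-like cells held 26 of the 32 at E11.5, in 8 of 50 cells (20.9 CPM, 13.7 to 30.7). Arterial-like cells held 3 UMIs in 3 cells at E11.5 (2.17 CPM, 0.447 to 6.34) and 17 UMIs in 9 of 250 cells at E10.5 (7.01 CPM, 4.08 to 11.2). Of the 9 arterial-like cells with Gfi1 at E10.5, 2 also had Runx1, against 5 of the 241 without it, and the cells with Gfi1 were deeper (median 15557 UMIs with Gfi1, 6308 without). Among neural crest or glia-like cells there was no UMI in 224 cells at E11.5, which allows a share of cells with a UMI of up to 1.34%, nor in 275 at E10.5 (up to 1.09%). This limits detection, not the share of cells that express the gene.

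Spi1 was the macrophage and granulocyte factor of the set. It was at 530 CPM in macrophage-like cells at E11.5 (496 to 565, 87 of 90 cells) and 378 CPM at E10.5 (328 to 434, 24 of 26 cells). Granulocyte or monocyte progenitor-like cells followed at E11.5 with 308 CPM, and all 50 had a UMI. Megakaryocyte-like cells had 31.3 CPM at E11.5 (38 of 113 cells), and early erythroid progenitor-like cells 8.82 CPM (58 of 311 cells). In arterial-like cells Spi1 was found in 6 of 123 cells at E11.5 and 9 of 250 at E10.5, beside 1.34% of neural crest or glia-like cells at E11.5 and 0.727% at E10.5. Of the 6 cells at E11.5, 2 had the pan-blood gene Ptprc and 1 the macrophage receptor Csf1r, while none of the 9 at E10.5 had either. Macrophage markers summed to 21.7 CPM in arterial-like cells at E11.5 (4 of 10 at 0) and 5.77 CPM at E10.5 (5 of 10 at 0), and their part in the result was not tested.

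Erg was the most endothelial of the 10. Endothelial-like cells, 263 at E11.5 and 390 at E10.5, held 67.5% of its UMIs at E11.5 and 81.5% at E10.5. At E11.5 arterial-like cells had 56.4 CPM (44.6 to 70.4) and venous or sinusoidal-like cells 56.1 CPM (49.2 to 63.6). At E10.5 arterial-like cells had 30.5 CPM (24 to 38.3) and venous or sinusoidal-like cells 20.9 CPM (17 to 25.4). The separate intervals overlapped at both stages, which does not show that the levels were equal. At E11.5 the 7 haemogenic-like cells followed with 32.2 CPM, and granulocyte or monocyte progenitor-like cells with 16.9 CPM (16 of 50 cells). Hepatoblast-like cells had no Erg UMI in 287 cells at E11.5, which allows a share of cells with a UMI of up to 1.05%, nor in 79 at E10.5 (up to 3.80%); cells that express the gene without a UMI are not limited by this.

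Fli1 was broader. It was at 340 CPM in megakaryocyte-like cells at E11.5 (317 to 365), above the next class beyond the intervals, with 168 CPM in venous or sinusoidal-like, 139 CPM in arterial-like and 95.2 CPM in macrophage-like cells. At E10.5, when 11 megakaryocyte-like cells were too few to rank, arterial-like cells led with 146 CPM (131 to 162). Their interval overlapped that of venous or sinusoidal-like cells at 132 CPM (122 to 143). Mesenchyme also carried it: the unnamed cluster 6 at E10.5, led by Meox1 and Ebf2, had 98.2 CPM, and sclerotome-like cells, the precursors of vertebrae, had 76.4 CPM. Unnamed cells outside blood and endothelium held 45.4% of Fli1 UMIs at E11.5 and 45% at E10.5. This was near their share of all cells, 45.1% at E11.5 and 47.7% at E10.5. Hepatoblast-like cells had 2.78 CPM at E11.5 and 3.03 CPM at E10.5.

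Mecom was highest in arteries at both stages, at 389 CPM (357 to 423) at E11.5 and 409 CPM (384 to 435) at E10.5. Nephric epithelium-like cells, the duct and tubules of the embryonic kidney, followed at 204 CPM (188 to 220) at E11.5 and 167 CPM (158 to 176) at E10.5. Smooth muscle or mural-like cells had 116 CPM at E11.5 and 48.7 CPM at E10.5. Venous or sinusoidal-like cells had much less than arterial-like ones, at 60.7 CPM at E11.5 and 25 CPM at E10.5. A UMI was found in 53.7% of arterial-like cells at E11.5 and 66.4% at E10.5, and, once thinned to 5000 UMIs, in 84.5% of 58 cells at E11.5 and 84.3% of 134 at E10.5. In macrophage-like cells, which should lack it, 5.56% of cells had a UMI at E11.5 and 7.69% at E10.5.

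Hlf was counted mostly outside blood. Named classes outside blood and endothelium held 80.2% of its UMIs at E11.5 and 64.8% at E10.5, while blood held 5.60% at E11.5 and 13.3% at E10.5. Those named classes were 37.9% of cells at E11.5 and 44.3% at E10.5, and blood was 14.1% at E11.5 and 3.16% at E10.5. By level, blood had 2.37 CPM and those named classes 16.5 CPM at E11.5, but 12.7 and 4.28 CPM at E10.5. All 58 Hlf UMIs of blood at E10.5 were in the 12 haemogenic-like cells. Hepatoblast-like cells, the liver epithelium, had 57.6 CPM (52.7 to 62.9, 185 of 287 cells) at E11.5 and 55.3 CPM (46.7 to 65.0, 55 of 79 cells) at E10.5. Neuron or neural tube-like cells had 88.6 CPM (78.6 to 99.6, 109 of 208 cells) at E11.5 and 5.14 CPM (2.94 to 8.35, 12 of 201 cells) at E10.5. At E11.5 the 7 haemogenic-like cells, with 80.5 CPM, lay between these classes, while granulocyte or monocyte progenitor-like cells had 28.2 CPM (13 of 50 cells) and arterial-like cells 17.3 CPM. Of neural crest or glia-like cells, 2.23% had a UMI at E11.5 and 4.73% at E10.5.

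Meis1 was a mesenchymal gene here. Its highest levels at E11.5 were 344 CPM (332 to 356) in the unnamed cluster 3, led by Igfbp3 and Itga8, and 333 CPM (318 to 347) in paraxial or other mesenchyme-like cells, with overlapping intervals. At E10.5 the unnamed cluster 6 led with 280 CPM (271 to 289). Smooth muscle or mural-like cells had 188 CPM at E11.5 and 219 CPM at E10.5. Among blood classes, megakaryocyte-like cells were at 163 CPM at E11.5 (147 to 180, 80 of 113 cells), haemogenic-like cells at 102 CPM and granulocyte or monocyte progenitor-like cells at 78.9 CPM (64.1 to 96.2). Macrophage-like cells had 9.29 CPM at E11.5 and 20.5 CPM at E10.5.

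Mllt3 was highest in red cells. Primitive erythroid-like cells had 262 CPM (234 to 292) at E11.5 and 293 CPM (273 to 314) at E10.5, and definitive erythroid-like cells had 205 CPM (196 to 215) at E11.5, counted in 351 of 369 cells. Arterial-like cells had 137 CPM at E11.5 and 91.5 CPM at E10.5. Early erythroid progenitor-like and megakaryocyte-like cells had overlapping intervals at E11.5, with 92.4 and 94.2 CPM.

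Ikzf2 had its highest ranked level at E11.5 in granulocyte or monocyte progenitor-like cells, with 97.4 CPM (80.9 to 116, 30 of 50 cells). Arterial-like cells were next with 55.7 CPM (43.9 to 69.6), overlapping nephric epithelium-like cells with 39.5 CPM (32.6 to 47.3). At E10.5 arterial-like cells led with 31.3 CPM (24.7 to 39.2), and gut or lung endoderm-like cells followed with 17.7 CPM (13.5 to 22.7). In macrophage-like cells 11.1% of cells had a UMI at E11.5 and 3.85% at E10.5.

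The number of factors found together in a cell differed by class. Cells were thinned to 5000 UMIs each, so that depth did not differ, and shallower cells were left out. Haemogenic-like cells then had 3.43 ± 2.51 of the 10 factors per cell at E11.5 (SD over 7 cells) and 3.25 ± 0.75 at E10.5 (12 cells). Arterial-like cells had 2.47 ± 1.23 at E11.5 (58 cells, 65 left out) and 2.31 ± 1.09 at E10.5 (134 cells, 116 left out). At E11.5 the median was 2 in both classes, and 42.9% of haemogenic-like and 48.3% of arterial-like cells had 3 or more factors. At E10.5 the median was 3 in haemogenic-like and 2 in arterial-like cells, with 3 or more factors in 83.3% and 42.5%. At E11.5 granulocyte or monocyte progenitor-like cells had 2.31 ± 1.34 and megakaryocyte-like cells 2.26 ± 0.98. Other blood classes had fewer: 3 or more factors were in 1.12% of definitive erythroid-like, 2.96% of early erythroid progenitor-like and 5.68% of macrophage-like cells at E11.5. Outside blood and vessels the share was 13% in smooth muscle or mural-like and 11.6% in nephric epithelium-like cells at E11.5, and 16.9% in sclerotome-like cells at E10.5. Neural crest or glia-like cells had none of the 10 in 72.1% of cells at E11.5 and 70.3% at E10.5, and no UMI of any factor was left in 28 primordial germ cell-like cells at E11.5. At full depth the median of arterial-like cells was 2 factors at both stages, and the highest cell had 9 at E11.5 and 8 at E10.5. The SD is over cells of 1 library, which are not replicates.

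**Figure D3:**
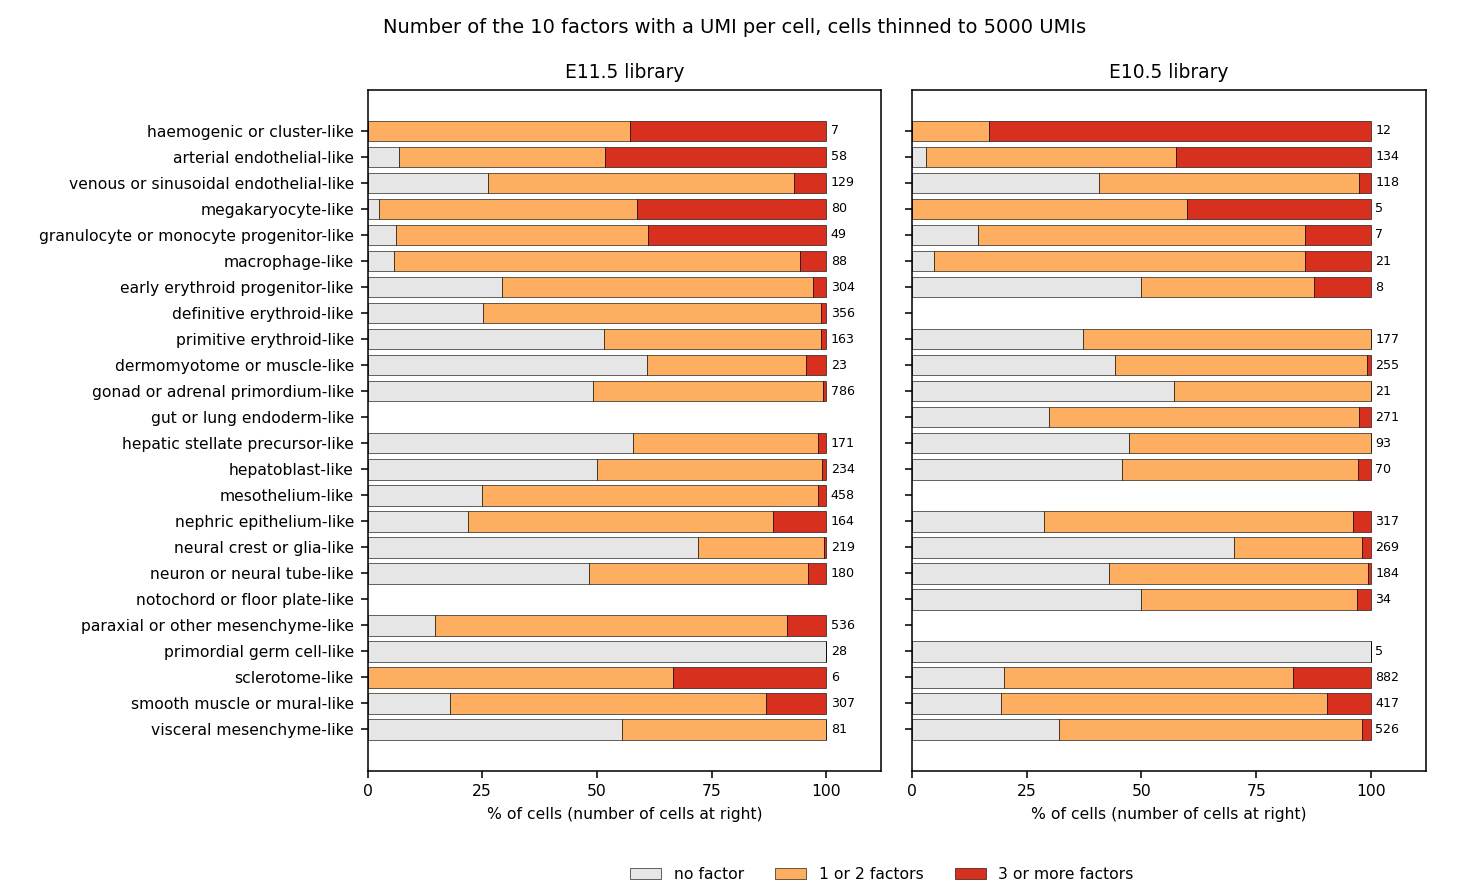
Share of cells in each class with no factor, 1 or 2 factors, or 3 or more of the 10, after each cell was thinned to 5000 UMIs, at E11.5 (left) and E10.5 (right), with the number of cells beside each bar. Arterial-like cells reach 48.3% with 3 or more at E11.5 and 42.5% at E10.5, while most neural crest or glia-like cells have none.

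The stages were compared in the 9 named classes with at least 50 cells in each library, where 49 of 90 pairs of gene and class had 20 or more UMIs. In 9 pairs the level was at least 2-fold higher at E11.5 and in 8 at least 2-fold lower. The share of all genes past the same fold depended on the class, and is given beside each one.

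In arterial endothelial-like cells, 3.20% of all genes were at least 2-fold higher and 3.11% at least 2-fold lower at E11.5. Of 9 factors measured there, 2 were higher and 1 was lower, with a median log2 ratio of 0.58 against 0.01 for all genes. Over the class, Mecom had -0.07 (-0.23 to 0.08) and Fli1 -0.06 (-0.32 to 0.20). Within the shallow cluster V0 alone, however, Mecom was at 78 CPM at E11.5 (11 UMIs) and 216 CPM at E10.5 (56 UMIs), a log2 ratio of -1.47 (-2.55 to -0.52), and Fli1 had -0.87 (-2.22 to 0.30). Hlf was higher by 1.94 (0.85 to 3.11), with 24 UMIs in 14 cells at E11.5 and 11 UMIs in 7 cells at E10.5. Spi1 was higher by 1.69 (0.66 to 2.79), but 15 of its 24 UMIs at E11.5 came from 1 cell, and without that cell the ratio was 0.33 (-1.08 to 1.67). Gfi1, with 3 UMIs at E11.5 and 17 at E10.5, had -1.69 (-4.11 to 0.10). Erg lay just under the threshold at 0.89 (0.41 to 1.36), and over all endothelial-like cells it was 1.21 (0.95 to 1.48), where 3.98% of all genes were at least 2-fold higher and 1.97% lower. V0 was shared by the libraries (65 of 123 arterial-like cells at E11.5, 115 of 250 at E10.5), while cluster V5 held 39 cells at E11.5 and 0 at E10.5, and cluster V1 held 8 at E11.5 and 118 at E10.5. Without V0, Hlf was higher by 2.06 and Erg by 1.09, and Mecom had -0.03.

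Hlf in neuron or neural tube-like cells had a log2 ratio of 4.11 (3.38 to 4.93), where 11.1% of all genes were at least 2-fold higher and 6.43% lower. It was nearly as large within cluster 22 alone, at 3.71 (2.98 to 4.54), with 107 of 180 cells positive at E11.5 and 12 of 122 at E10.5. That cluster was led by Chgb, Dbh, Phox2a and Th, genes of sympathetic neurons and chromaffin cells. Of the 109 Hlf-positive cells at E11.5, 98 had Th, the rate-limiting enzyme of catecholamine synthesis, and 106 had Dbh, against 70 with Th and 78 with Dbh of the 99 cells without Hlf. Cells with Hlf were deeper (median 18146 UMIs with Hlf, 13928 without). All 12 Hlf-positive cells at E10.5 had Th and Dbh, against 107 with Th and 109 with Dbh of 189 without Hlf. Those 12 were all in cluster 22, while the 189 included the 79 cells of cluster 37, led by Ina and Tubb3. At both stages the cells without Hlf came from both clusters, so these shares mix clusters. A link of Hlf with Th or Dbh within a cluster was not tested. Mecom was also higher in this class, at 36.3 CPM at E11.5 and 9.96 CPM at E10.5 (1.86, 1.28 to 2.49). Mllt3 had -1.07 (-1.56 to -0.58) over the class, but 0.87 (0.11 to 1.67) within cluster 22 and -1.39 (-3.69 to 0.21) within cluster 37. Cluster 22 held 180 of these cells at E11.5 and 122 at E10.5, and cluster 37 held 28 at E11.5 and 79 at E10.5.

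Smooth muscle or mural-like cells had Erg at E11.5 but hardly at E10.5. It was counted in 45 of 313 cells at E11.5 (53 UMIs, 10.7 CPM) and in 2 of 433 cells at E10.5 (2 UMIs, 0.29 CPM), a log2 ratio of 5.20 (3.28 to 8.29). Of the 45 cells, all had the smooth muscle actin gene Acta2, 1 had Cdh5 and 2 had Pecam1, and without cells with 2 or more UMIs of endothelial markers the ratio was 5.02. Mecom was higher in the same class by 1.26 (1.06 to 1.46), and Fli1 had -0.97 (-1.3 to -0.66). Without the cells with endothelial UMIs (66 at E11.5, 68 at E10.5), Fli1 had -1.15 (-1.55 to -0.77). Of all genes, 8.18% were at least 2-fold higher and 4.17% lower there. The class was cluster 20 at E11.5 (309 cells, 0 at E10.5) and cluster 14 at E10.5 (433 cells, 4 at E11.5), so cluster, library and stage cannot be told apart.

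Nephric epithelium-like cells had more Ikzf2 at E11.5, at 39.5 CPM, than at E10.5, at 12.1 CPM (1.71, 1.3 to 2.12), and within cluster 17 alone the ratio was 2.26 (1.84 to 2.69). Meis1 was higher over the class by 1.16 (0.96 to 1.36) but had -0.59 (-0.98 to -0.22) within cluster 17, and the class at E11.5 also held 117 cells of cluster 35, which had 0 at E10.5. Fli1 was lower over the class (-1.07, -1.91 to -0.32). Without the cells with 2 or more UMIs of endothelial markers (66 at E11.5, 164 at E10.5), Fli1 had -0.86 (-2.30 to 0.37), Ikzf2 1.87 and Meis1 1.21. Of all genes in this class, 11.4% were at least 2-fold higher and 3.50% lower.

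Fli1 was lower at E11.5 in 3 further classes. In neural crest or glia-like cells it had 2.38 CPM at E11.5 and 10.51 CPM at E10.5 (-2.15, -3.16 to -1.25), in visceral mesenchyme-like cells 2.32 CPM at E11.5 and 14.4 CPM at E10.5 (-2.64, -4.53 to -1.25), and in hepatic stellate precursor-like cells 3.41 CPM at E11.5 and 10.3 CPM at E10.5 (-1.60, -3.02 to -0.23). In neural crest or glia-like cells 5.60% of all genes were at least 2-fold higher and 4.71% lower. The shares were 6.85% higher and 7.52% lower in visceral mesenchyme-like cells, and 5.51% higher and 4.44% lower in hepatic stellate precursor-like cells. Mecom in neural crest or glia-like cells was also lower (2.57 CPM at E11.5 and 11.1 CPM at E10.5, -2.11, -3.08 to -1.25). Endothelial markers moved with these values in neural crest or glia-like cells, at 39.6 CPM summed at E11.5 and 122 CPM at E10.5. In hepatic stellate precursor-like cells they went the other way from Fli1, at 246 CPM at E11.5 and 185 CPM at E10.5. The part of endothelial RNA in the Fli1 values was not tested. Without the neural crest or glia-like cells with 2 or more UMIs of those markers (42 at E11.5, 62 at E10.5), Fli1 had -1.29 (-2.49 to -0.21). Mecom there had -0.82 with an interval that reached 0.33. With such cells left out of visceral mesenchyme-like cells, Fli1 had -2.23 (-7.55 to 0.30), with 1 UMI at E11.5. In hepatic stellate precursor-like cells the filter left out 135 cells at E11.5 and 56 at E10.5. Only 3 Fli1 UMIs were then left at each stage, too few for a ratio. Without 1 E10.5 stellate precursor-like cell with 2 Fli1 UMIs, the ratio there was -1.34 (-2.82 to 0.11). Mllt3 was lower in visceral mesenchyme-like cells (-1.29, -1.86 to -0.77), where Meis1 had -0.93 (-1.17 to -0.70). Without the cells with endothelial UMIs (24 cells left at E11.5, 298 at E10.5), Mllt3 there had -0.56 (-1.64 to 0.34) and Meis1 -0.49 (-0.98 to -0.03).

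In hepatoblast-like and primitive erythroid-like cells the factors with the highest levels stayed under 2-fold. Hlf in hepatoblast-like cells had a log2 ratio of 0.06 (-0.21 to 0.34), and none of 4 factors measured there passed 2-fold either way, against 8.34% of all genes higher and 4.43% lower. Mllt3 there was at 63.2 CPM at E11.5 and 41.6 CPM at E10.5, a log2 ratio of 0.60 (0.30 to 0.91), whose interval left out 0. The class was mainly cluster 28 at E11.5 (231 cells, 1 at E10.5) and cluster 32 at E10.5 (78 cells, with 56 shallow ones at E11.5). Within cluster 32 Hlf was at 18.4 CPM at E11.5 (3 UMIs) and 55.8 CPM at E10.5 (145 UMIs), a log2 ratio of -1.60 (-3.90 to -0.03). Mllt3 within that cluster had -1.19 (-3.49 to 0.39). In primitive erythroid-like cells, Mllt3 had -0.16 (-0.35 to 0.03) and Gfi1b -0.02 (-0.39 to 0.35), where 12.7% of all genes were higher and 5.86% lower. Here too the clusters differed: E5, E8 and E9 held 114, 35 and 22 cells at E11.5 and 0 at E10.5, and E0 held 1 at E11.5 and 179 at E10.5, so cluster and stage cannot be told apart. Meis1 there was higher by 2.44 (1.5 to 3.45), but 29 of its 33 UMIs at E11.5 were in the 14 cells of cluster E10, and without that cluster the ratio was 0.33 (-1.79 to 2.13). Those 14 cells had 707 CPM of summed mesenchyme markers, against 110 CPM in the other primitive erythroid-like cells at E11.5.

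The unnamed cluster 0 was also in both libraries (825 cells at E11.5, 1177 at E10.5), with 5.27% of all genes at least 2-fold higher and 4.15% lower. The cluster was shallow (median 1610 UMIs at E11.5, 1728 at E10.5). Gfi1b was higher there (17 UMIs at E11.5, 5 at E10.5, a log2 ratio of 2.51, 1.02 to 4.31), and the 5 other factors with enough UMIs stayed under 2-fold. Gfi1b UMIs in blood numbered 3314 at E11.5 and 295 at E10.5, and Gfi1b was also higher over all other named cells (1.52 CPM at E11.5, 0.197 CPM at E10.5) and other unnamed cells (1.60 CPM at E11.5, 0.127 CPM at E10.5). The part of free RNA from blood in this was not tested.

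**Figure D4:**
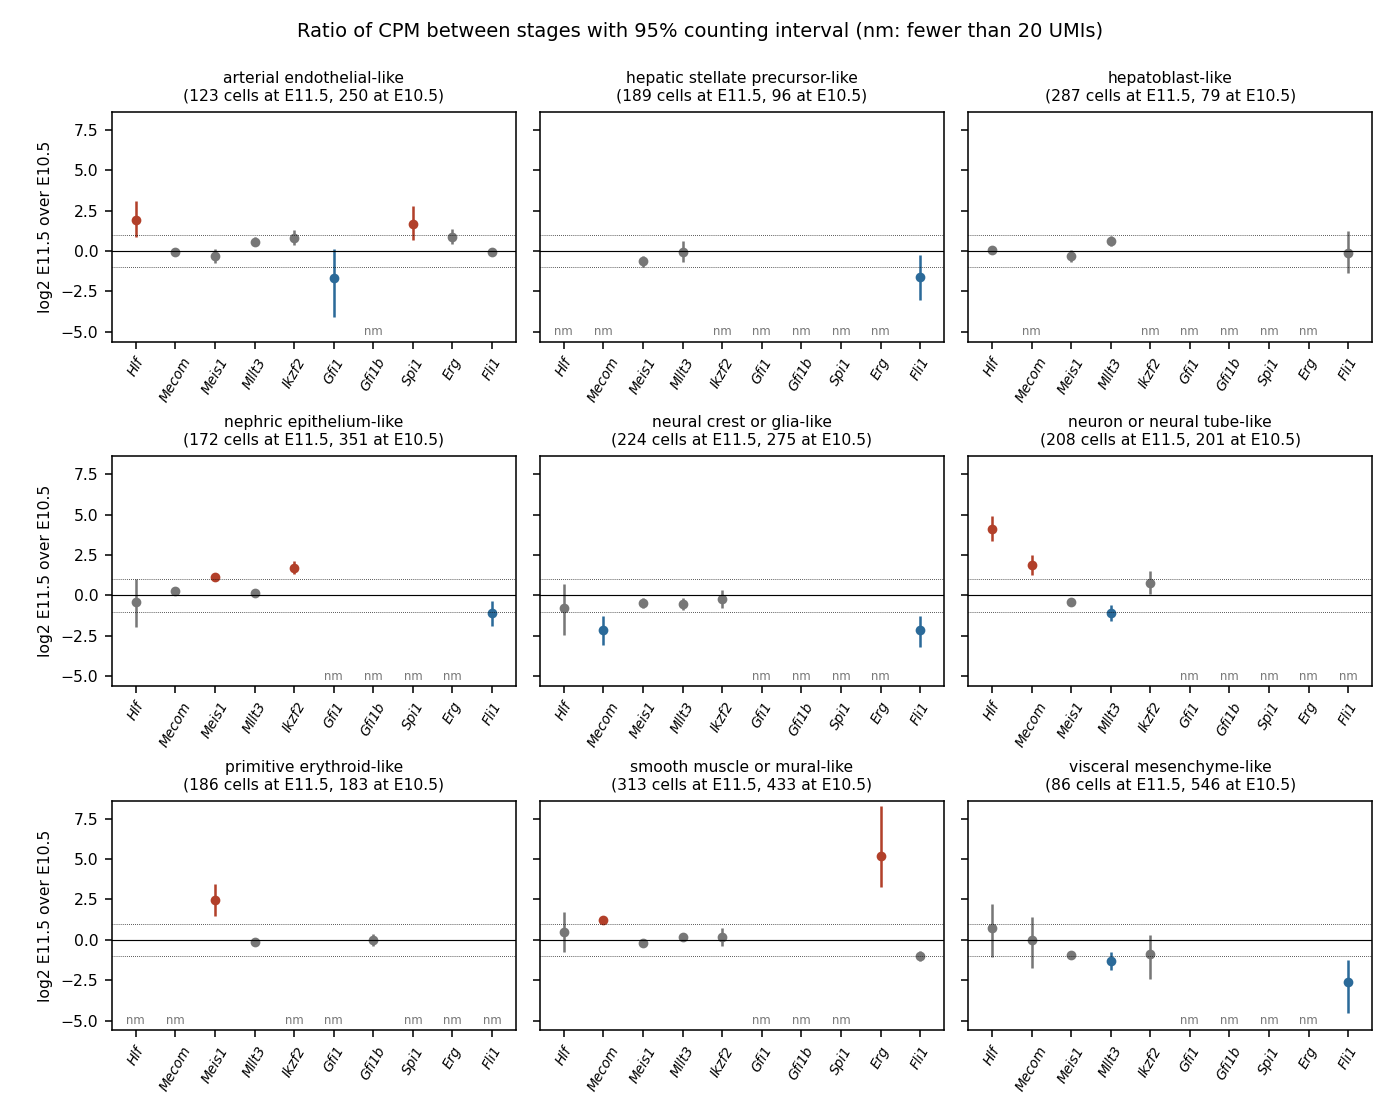
Log2 ratio of CPM at E11.5 over E10.5 with its 95% counting interval for each factor in the 9 compared classes; dotted lines mark 2-fold, red points are at least 2-fold higher, blue points at least 2-fold lower, and nm marks fewer than 20 UMIs. Hlf in neuron or neural tube-like cells (4.11) and Erg in smooth muscle or mural-like cells (5.20) lie farthest above 0.

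Relatives and partners of the factors were described by count. Of 18 other ETS genes, 13 could be ranked at E11.5 and 12 at E10.5, and 8 peaked in blood or endothelium at each stage, among them Ets2, Elk3, Elf1 and Elf2. Of the Runx1, Gata2, Tal1, Lyl1 and Lmo2 partners of Erg and Fli1, 4 of 5 did so at each stage, and Gata2 did not, with its highest level in mesothelium-like cells at E11.5 (209 CPM). None of the Meis and Pbx relatives of Meis1 peaked in blood or endothelium, 0 of 6 at E11.5 and 0 of 8 at E10.5. The counts were 1 of 3 at both stages for the Ikaros family, 2 of 5 for the Mecom family and partners, and 1 of 5 for the Gfi1 partners. They were 2 of 7 at E11.5 and 1 of 7 at E10.5 for the Mllt3 partners, 1 of 3 at E11.5 and 0 of 1 at E10.5 for the PAR bZIP relatives of Hlf, and 4 of 12 at E11.5 and 2 of 12 at E10.5 for other stem and progenitor factors. Of all genes, 39.1% peaked in blood or endothelium at E11.5 and 26.1% at E10.5. Several of the list counts lie near these shares, the lists are short, and no difference from all genes was tested.

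Some paralogs peaked where their relative did. Prdm16, the paralog of Mecom, was highest in arterial-like cells at both stages, at 51.3 CPM at E11.5 and 31.3 CPM at E10.5. Tef, a PAR bZIP factor like Hlf, was highest in neuron or neural tube-like cells at E11.5 with 26.8 CPM. Ikzf1 shared granulocyte or monocyte progenitor-like cells with Ikzf2 at E11.5 (147 CPM), but peaked in primitive erythroid-like cells at E10.5 (65.0 CPM). Meis2 was highest in the unnamed cluster 19, led by Igf1 and Ccdc80, at E11.5 (1070 CPM) and in the unnamed cluster 15, led by Aldh1a2 and Upk3b, at E10.5 (609 CPM). In arterial-like cells, none of 12 ETS genes and none of the 5 partners Runx1, Gata2, Tal1, Lyl1 and Lmo2 passed 2-fold between the stages, while 3 of 11 other stem and progenitor factors were higher at E11.5 (Hoxa5 1.23, Myb 1.23 and Hoxa9 1.06) and Pbx3 was lower (-1.13). Of all genes in these cells, 3.20% were at least 2-fold higher at E11.5 and 3.11% lower. In haemogenic-like cells Myb, a regulator of definitive blood, had 145 CPM at E11.5 and 193 CPM at E10.5, Hoxa9 had 123 CPM at E11.5 and 150 CPM at E10.5, and Lmo2 had 220 CPM at E11.5 and 248 CPM at E10.5.

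The genes whose levels ran most like each factor were found over 43 clusters at E11.5 and 27 at E10.5 with at least 20 cells, among 10207 genes. The points are clusters of 1 library that share its depth and background, so Pearson's r of log2 (CPM + 10) is a description. Gfi1b was followed by Gata1 (mean r of both stages 0.97), the erythroid master regulator, and by Cited4 and Tmem14c. Spi1 was followed by Tyrobp (0.97), Fcgr3 and Cd52, and Erg by Cd93 (0.94), Cd34 and Adgrl4. The genes like Meis1 included H2afy2 (0.83) and Asxl3 (0.82). Mecom was followed by Eva1a (0.78), the Notch ligand gene Jag1 and Cadps2. Fli1 was followed by Sh3bgrl3 (0.81), Klhl6 and Tpm3. Likeness was weaker for Hlf (C3 0.72, Il1r1, Abca8b), Ikzf2 (Gcnt2 0.73, Slco3a1, Sirt5) and Mllt3 (Mgst3 0.66, Gadd45a, Urod), and Gfi1 was too low to rank. Between factors, r was 0.52 at E11.5 and 0.62 at E10.5 for Erg with Fli1, 0.59 at E11.5 and 0.49 at E10.5 for Mllt3 with Gfi1b, and -0.45 at E11.5 and -0.46 at E10.5 for Meis1 with Gfi1b.

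On GRCm38 the genes lie at chr11:90336536-90390895 (Hlf), chr3:29951296-30548008 (Mecom), chr11:18879817-19018985 (Meis1), chr4:87769925-88033364 (Mllt3) and chr1:69531214-69687245 (Ikzf2). The others lie at chr5:107716657-107726036 (Gfi1), chr2:28609450-28621982 (Gfi1b), chr2:91082390-91115756 (Spi1), chr16:95359169-95586593 (Erg) and chr9:32422204-32542861 (Fli1), with Spi1 alone on the plus strand. Mecom, Meis1, Ikzf2 and Fli1 overlap antisense genes that the count tables also list, and the strand setting of the counting is not given in the sources used here, so reads of each pair cannot be told apart here.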

How the data were processed

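The authors deposited gene-by-cell UMI counts for both libraries, made with Cell Ranger 5.0.0 on mm10 (GRCm38), per the submitters' processing notes; the strand setting is not given in the sources used here. Barcodes with at least 1000 UMIs, 500 genes and at most 10% mitochondrial UMIs were kept, 9756 at E11.5 and 8705 at E10.5. Scrublet's automatic threshold marked 0 doublets, so the 8% of barcodes with the highest scores were removed (780 at E11.5, 696 at E10.5). Cells of both libraries were clustered together (scanpy 1.11.5, Leiden resolution 1.0, 40 principal components) without the 10 factors and 68 list genes, and blood and vascular clusters were clustered again. A cluster was named where at least 3 listed markers were at least 3-fold above the rest; these thresholds and the reclustering were chosen after seeing the data. CPM pooled all cells of a class, leaving haemoglobin and mitochondrial genes out of the total. Intervals are exact 95% (Poisson for CPM, conditional binomial for ratios) and cover counting error only; a count of 0 allows 3 counts. A ratio needed 20 UMIs over both libraries. The ratio code was checked on simulated counts. Likeness named the 3 genes with the highest mean r for each factor; 1 such gene is not reported here. The members and gene lists were chosen with earlier results of these data known. Promoter sequences are from RefSeq.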

Additional observations from a re-analysis of the deposited data

Results flagged for a closer look

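The ratio of Mecom between the libraries of the stages went in opposite directions in different classes. Its log2 ratio of E11.5 over E10.5 was 1.86 in neuron or neural tube-like cells and 1.26 in smooth muscle or mural-like cells, but in cells like neural crest or glia it was -2.11. The difference between the classes was not tested, since each stage was 1 library. Without the cells with 2 or more UMIs of endothelial markers, the value in neural crest or glia-like cells was -0.82 (-2.07 to 0.33), an interval that holds 0. Smooth muscle or mural-like cells were mainly cluster 20 at E11.5 and were cluster 14 at E10.5, so cluster and stage cannot be told apart there.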

How the results depend on the processing

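No paired analysis was possible because each stage was 1 library. The number of factors highest in blood or endothelium was 8 at E11.5 under each alternative run, and 8 or 9 at E10.5. Against 9 pairs higher and 8 lower, a mitochondrial limit of 5% left 3 lower, and keeping the doublets gave 17 higher. Thinning to 5000 UMIs gave 5 higher and 4 lower, as did a minimum of 100 UMIs. In arterial-like cells thinned to 2000 UMIs, 1.08 factors per cell were counted at E11.5 and 1.21 at E10.5. The haemogenic-like values moved at resolution 2.0 for 11 of 20 values, and this class gave no value at resolution 0.5 or with the 5% mitochondrial limit. No ratio past 2-fold changed sign under these alternatives, but within 1 cluster Mecom in arterial-like cells had -1.47, Hlf in hepatoblast-like cells had -1.60, Meis1 in nephric epithelium-like cells had -0.59, and Mllt3 in neuron or neural tube-like cells had 0.87. Leaving out a replicate was not possible. Depth limits Gfi1 most, with 32 UMIs at E11.5 and 64 at E10.5. Alternatives that left out 1 cell, the shallow arterial cluster or cells with endothelial UMIs were chosen after seeing the data.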
